A study of Arabidopsis thaliana with 9 samples.

Results

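Cytochrome P450 genes are described here in rosette leaves of Arabidopsis thaliana, outside the pathways in which they are best known. The 228 genes are the rows of a 33610-row expression table whose description holds the words cytochrome P450, apart from 15 such rows for enzymes of camalexin, glucosinolate, flavonoid, wax and jasmonate synthesis. Leaves were detached from 30-day-old plants that had not been infected. Each of 3 genotypes gave 3 libraries: Col-0 wild type (WT), VQ28KO12, which the labels call a VQ28 knockout, and VQ28OE9, which they call a VQ28 overexpressor. All plants shared the same chamber conditions per the labels, each mutant group is 1 line, and no source used here gives the promoter of the overexpressor or the lesion of the knockout. The labels do not say whether libraries came from separate plants, so each p rests on the spread among libraries of a genotype, and that spread may be technical.

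Cytochrome P450 enzymes are haem proteins that use molecular oxygen and electrons from NADPH to oxidise a substrate. In plants they form one of the largest enzyme families and act in the synthesis and breakdown of hormones, sterols, carotenoids, cutin, lignin and defence compounds. Most sit in the membrane of the endoplasmic reticulum and receive electrons from a separate reductase. Names follow sequence likeness, so that CYP81D8 is a gene of subfamily D in family CYP81. VQ28 belongs to the VQ proteins, small plant cofactors that bind WRKY transcription factors, and WRKY factors bind the W-box, whose core is TTGAC.

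The feature that the enzymes share is a loop near the end of the protein in which a cysteine holds the haem iron. A stretch of 30 coding bases matching the PROSITE pattern of that loop was found in 203 of the 228 genes, in 79 of the 87 genes that were expressed enough to be tested and in 124 of the other 141. The 25 genes without a match include short gene models and genes whose loop differs from the pattern, such as CYP94B1, CYP94B3 and CYP94C1. The 203 genes held 195 distinct versions of the 30 bases. The loops of 8 genes that the results turn on are shown, so that the common part can be set beside what differs. Each is RefSeq coding sequence of TAIR10.1, read 5′ to 3′ on the gene's own strand, and the capitals mark the cysteine codon.
CYP81D8, chr4:17570160-17570189, minus strand: tttgggttaggaagaagggcgTGTcctggt
CYP81D1, chr5:14254010-14254039, minus strand: tttggattaggtagaagagcgTGTcctgga
CYP71A21, chr3:17892604-17892633, plus strand: tttggagcagggagaaggattTGTccagca
CYP71B37, chr3:9647050-9647079, minus strand: tttggaagtggtaggagaatgTGTcctgcc
CYP72A8, chr3:4916671-4916700, plus strand: tttggatggggaccaagattcTGTcctggc
CYP86A2, chr4:162470-162499, plus strand: tttaacgccggacctaggatcTGTctagga
CPD, chr5:1703163-1703192, minus strand: tttggtggagggccaaggctaTGTcccggt
BAS1, chr2:11383216-11383245, plus strand: tttggcctcggagttcgtacaTGCattggt
The first of these genes rose and the second fell in the same comparison, as described under the overexpressor.

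Expression was measured as FPKM, which scales fragments by the length of the gene and the size of the library, and as whole-number counts, called units here because about 4 of them stand for 1 fragment. The libraries held 64552605 to 95223547 units, of which the 228 genes took 0.417 to 0.478%. The 5 leaf mesophyll markers summed to 26874 to 29634 FPKM in WT, 24652 to 29837 in VQ28KO12 and 22107 to 25475 in VQ28OE9. The VQ28OE9 sums lay wholly below WT. Of the 5 markers, only RBCS1A and CA1 did so, while LHCB1.1, LHCB2.1 and RCA overlapped WT. The 3 markers of dividing cells also summed to less in VQ28OE9 than in WT, at 1.19 to 1.84 against 2.27 to 3.02 FPKM. Of these 3, only AT1G76540 lay wholly below WT, while KNOLLE and AT4G37490 overlapped it. The 4 guard cell markers summed to more, at 19.7 to 24.002 against 13.9 to 15.5 FPKM. The part of these cells in the results on VQ28OE9 against WT was not tested. All 4 root and both seed markers were at 0 in each library and 5 flower markers summed to at most 0.264 FPKM. VQ28 stood at 8.70, 0.456 and 6.72 FPKM in WT and at 6244, 4665 and 5942 FPKM in VQ28OE9. Replicates 1 and 2 of those labelled VQ28KO12 read 8.36 and 10.1 FPKM, while replicate 3 had no unit (0), so the first pair go against the label as far as mRNA can show. WT replicate 3 and VQ28OE9 replicate 3 lay apart from the other 7 on the second principal component of all tested genes, at -25.78 and -30.19 against -3.93 to 17.6.

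Most of the family was silent or nearly so in these leaves. Of the 228 genes, 79 had no unit in any library, 110 were above 0 in all 9 and 39 in only some. A mean of at least 1 FPKM over the 9 libraries was reached by 87 genes, or 38.16%, against 47.75% of all genes in the table, and these 87 were tested. The other 141 could not be tested, and 62 of them had some units. The lowest tested mean was 1.033 FPKM and the highest untested one 0.901. Because the mean runs over all 9 libraries, 1 tested gene had a WT mean under 1 FPKM and 4 had a VQ28OE9 mean under 1, while 4 untested genes reached 1 FPKM in some genotype. The tested genes had a median of 8.582 FPKM in WT, close to the 8.396 of all 16050 tested genes.

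Expression was concentrated in a few members. The 8 highest genes held 55.39% of the family's summed FPKM in WT. The highest was CYP94B1, with 294.9, 415.0 and 290.2 FPKM in the WT libraries, a mean of 333.4 ± 70.7 (SD, n = 3, as for all levels below). CYP94B1 and CYP94B3, which stood at 232.1 ± 99.9 FPKM, hydroxylate the active jasmonate hormone, jasmonoyl-isoleucine, and CYP94C1, at 82.68 ± 22.1 FPKM, oxidises it further. CYP86A2, a fatty acid hydroxylase of cutin synthesis, came second with 291.3 ± 28.2 FPKM. CYP82G1, which makes volatile homoterpenes, stood at 112.8 ± 42.8 FPKM and CYP96A4 at 111.9 ± 36.7. The others of the 8 were CYP81D1, at 94.46 ± 16, and CYP89A9, which oxidises chlorophyll breakdown products in ageing leaves, at 83.31 ± 33.7. Neighbours in this order were not set apart by their spread: the WT libraries of CYP94B1 overlapped those of CYP86A2, and those of CYP82G1 overlapped those of CYP96A4.

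**Figure D1:**
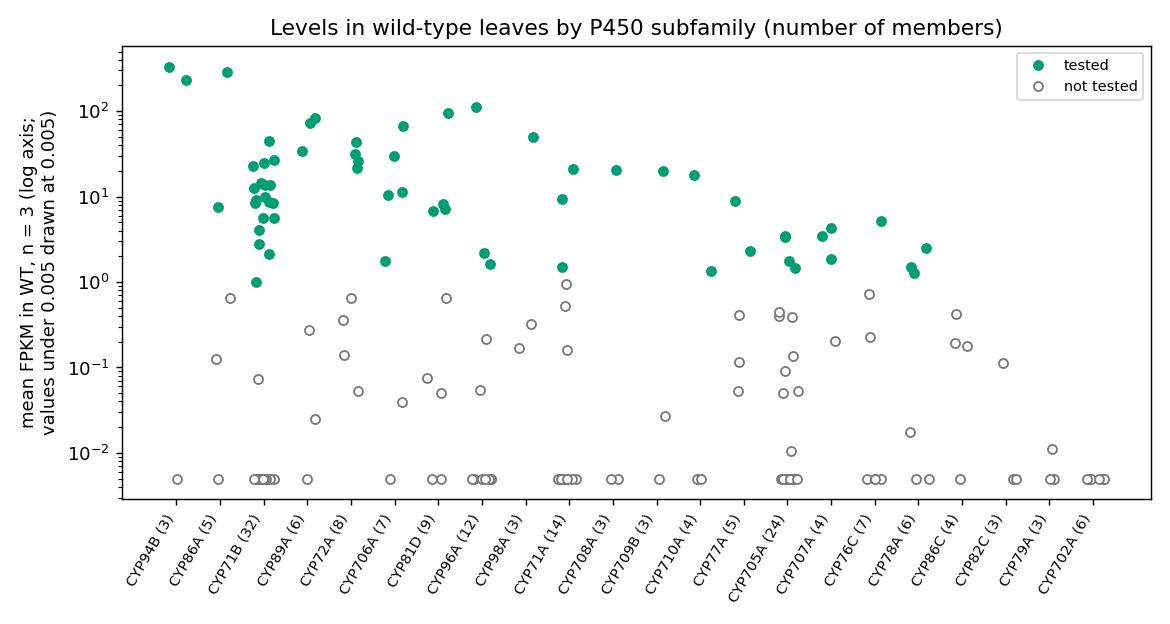
Mean FPKM in the 3 WT libraries (log axis) for each gene of the P450 subfamilies with 3 or more members, ordered by summed level. Filled points are the tested genes and open points the untested ones, with values under 0.005 FPKM drawn at 0.005. Levels in CYP71B and CYP71A run from 0 to above 10 FPKM, and CYP702A has no tested gene.

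Subfamilies differed in how many members were on. In CYP71B, the subfamily with the most members, 19 of 32 genes were tested, with up to 44.52 FPKM in WT, and 12 were at 0 in every library. In CYP705A, 4 of 24 genes were tested, and the highest stood at 3.477 FPKM. CYP72A had 4 of 8 genes tested and none at 0 in all libraries, and CYP706A had 5 of 7 tested. CYP71A had 3 of 14 tested and CYP96A 3 of 12. None of the 6 CYP702A genes was tested, and 5 of them had no unit in any library. The plot of WT levels by subfamily shows that one gene often stood far above its relatives, as CYP86A2 did over the CYP86A genes.

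The comparison of VQ28OE9 with WT asks which P450 genes differ in leaves of the overexpressor. CYP81D8 and CYP71A21 were higher, and CYP72A8, CYP81D1 and CYP71B37 were lower. These 5 are 5.75% of the 87 tested P450 genes, beside 2.31% of all 16050 tested genes (edgeR's quasi-likelihood test, Benjamini-Hochberg adjusted p under 0.05 over all tested genes, two-sided). The 2 higher genes are 2.30% of the 87, beside 1.37% of all, and the 3 lower ones 3.45%, beside 0.935%. The median log2 fold change of the 87 was 0.04, beside 0.00 for all tested genes, and 10 of the 87 lay more than 1 from 0 on the log2 scale.

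CYP81D8 (AT4G37370, chr4:17569828-17571704, minus strand in the deposited table, for which no source used here names the genome build) belongs to the CYP81D genes known for their response to stress and foreign chemicals. Its levels were 10.51, 7.56 and 3.29 FPKM in WT and 69.09, 50.92 and 41.33 FPKM in VQ28OE9. Every VQ28OE9 library lay far above every WT library. The difference was 2.90 ± 0.38 (SE) on the log2 scale, or 7.48-fold (edgeR adjusted p = 0.011). It passed in all 20 alternative settings, with adjusted p up to 0.0446. Its closest relative in coding sequence was CYP81D2, at 79.3% identity.

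The 72 bases before the RefSeq start of CYP81D8, up to the neighbouring gene AT4G37380, are shown because they hold the W-box core 4 times (TAIR10.1, chr4:17571744-17571815, minus strand). Here and in the other upstream windows the capitals mark TTGAC or, where the motif lies on the other strand, GTCAA.
CYP81D8: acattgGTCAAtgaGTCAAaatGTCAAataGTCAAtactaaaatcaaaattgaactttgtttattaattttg
The 4 matches begin 66, 58, 50 and 42 bases before the start, 8 bases apart, and another lies 125 bases before it inside the neighbouring gene. At least 1 TTGAC, counted on both strands, was found in the 250 bases before the start in 45% of 26709 protein-coding genes, and 5 or more in 31 of them, or 0.116%. The P450 genes with 5 or more were 2 of 228, of which CYP81D8 was the tested one. A match describes these letters and does not show that a factor binds there.

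CYP71A21 (AT3G48320, chr3:17891134-17892847, plus strand) stood at 10.95, 8.72 and 8.54 FPKM in WT and at 19.77, 20.38 and 18.24 FPKM in VQ28OE9. The groups were well separated, with little spread in either. The gene was 2.04-fold higher, at 1.03 ± 0.13 on the log2 scale (edgeR adjusted p = 0.011). It passed in all 20 settings, with adjusted p up to 0.0479. It overlaps AT3G48330 on the opposite strand by 110 bases, and no source used here says whether the counting used the strand. Its neighbour CYP71A22, at 91.4% coding identity, was at 0.32 ± 0.13 (adjusted p = 0.238). The 250 bases before its RefSeq start (TAIR10.1, chr3:17890884-17891133, plus strand) hold the W-box core 2 times.
CYP71A21: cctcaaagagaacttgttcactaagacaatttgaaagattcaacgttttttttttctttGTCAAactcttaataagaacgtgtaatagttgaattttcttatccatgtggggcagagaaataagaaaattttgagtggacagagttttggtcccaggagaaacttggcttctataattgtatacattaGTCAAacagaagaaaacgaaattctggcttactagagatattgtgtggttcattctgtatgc
Of the 26709 genes, 14.1% hold the core at least 2 times in this window.

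CYP81D1 (AT5G36220, chr5:14253690-14256033, minus strand), of the same subfamily as CYP81D8, moved the other way. It stood at 109.9, 95.52 and 77.95 FPKM in WT and at 49.87, 58.99 and 41.67 FPKM in VQ28OE9, without overlap. The fall was -0.93 ± 0.15 on the log2 scale, a level 1.91-fold lower (edgeR adjusted p = 0.0215). CYP72A8 (AT3G14620, chr3:4914914-4917078, plus strand) stood at 54.21, 36.86 and 41.54 FPKM in WT and at 22.27, 23.60 and 25.63 FPKM in VQ28OE9. These groups did not overlap either, and the log2 fold change was -0.91 ± 0.15 (adjusted p = 0.0219). CYP71B37 (AT3G26330, chr3:9646805-9648584, minus strand) stood at 3.92, 3.60 and 9.50 FPKM in WT and at 0.795, 1.16 and 1.97 FPKM in VQ28OE9. Its log2 fold change was -2.13 ± 0.45 (adjusted p = 0.0432), with WT replicate 3 more than double the other WT libraries. No role is given here for CYP72A8 or CYP71B37.

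The upstream window of CYP81D1 (TAIR10.1, chr5:14256285-14256534, minus strand) is shown beside that of CYP81D8, since these relatives moved in opposite directions. It holds the W-box core 1 time, 225 bases before the start.
CYP81D1: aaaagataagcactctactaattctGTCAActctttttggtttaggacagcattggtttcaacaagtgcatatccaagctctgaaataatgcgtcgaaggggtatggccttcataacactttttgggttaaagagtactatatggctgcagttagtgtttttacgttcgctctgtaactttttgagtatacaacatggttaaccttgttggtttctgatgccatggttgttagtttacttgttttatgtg
Of the 17 P450 genes that changed in either comparison with VQ28OE9, 10 held the core within 250 bases. So did 50.4% of the 228 genes and 45% of all protein-coding genes. These counts include matches that lie in a neighbouring gene. In CYP72A8 and CYP71B3, each core lay wholly or partly inside one. TGACG, the core of the as-1 element bound by TGA factors, was found in 2 of the 17, in 16.7% of the 228 and in 18.6% of all. The 2 motifs share bases where TTGACG occurs, which was the case in 6.14% of the 228 windows and 7.21% of all.

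The 3 falls depended on single libraries, unlike the 2 rises. CYP81D1 had an adjusted p = 0.063 without WT replicate 1, 0.0502 without WT replicate 2 and 0.0826 without VQ28OE9 replicate 1. For CYP72A8 these values were 0.0595 without WT replicate 1, 0.0533 without WT replicate 3, 0.0899 without VQ28OE9 replicate 1 and 0.0704 without VQ28OE9 replicate 2. CYP71B37 missed the threshold without any single library other than VQ28OE9 replicate 3, with adjusted p up to 0.145, and was the gene of the 5 that passed in the fewest settings, 9 of 20. The log2 fold changes of CYP71B37 without 1 library ran from -2.57 to -1.53.

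**Figure D2:**
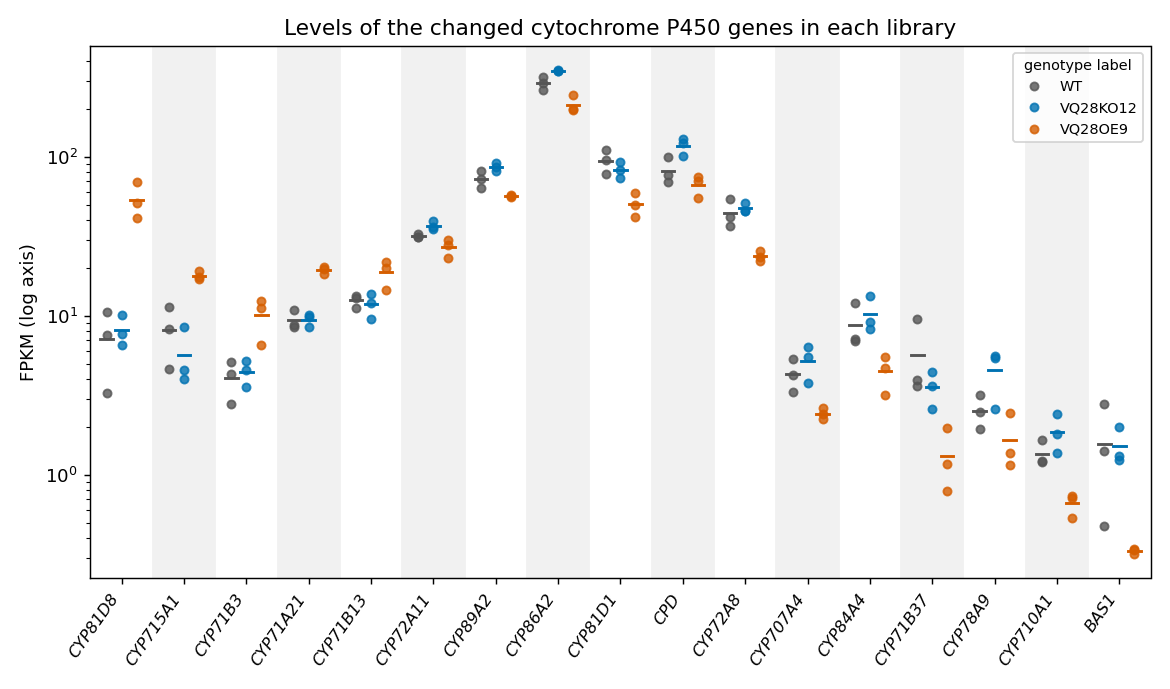
FPKM (log axis) of the 17 P450 genes that changed in VQ28OE9 against WT or against VQ28KO12, with 1 point per library and a bar at the mean of 3. CYP81D8 at the left rises from 3.29 to 10.51 FPKM in WT to 41.33 to 69.09 in VQ28OE9, and BAS1 at the right lies between 0.316 and 0.339 in VQ28OE9.

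Beyond the calls, many P450 genes had groups that did not overlap. In 32 of the 87 genes, or 36.8%, all VQ28OE9 libraries lay on one side of all WT libraries, beside 22.3% of all tested genes. Of these, 18 were higher (20.7%, beside 13.0%) and 14 lower (16.1%, beside 9.24%). An unadjusted p under 0.05 was found for 31 of the 87, or 35.6%, beside 17.4% of all tested genes. These shares are descriptions, and most of those genes did not pass the adjusted threshold.

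The comparison of VQ28OE9 with VQ28KO12 uses the same VQ28OE9 libraries, so it is no independent repeat of the first. Here 16 of the 87 genes changed, or 18.4%, beside 6.33% of all tested genes (edgeR adjusted p under 0.05). Higher were 5 genes (5.75%, beside 3.71%) and lower were 11 (12.6%, beside 2.62%). The median log2 fold change of the 87 was -0.02, beside -0.01 for all tested genes. CYP81D8, CYP71A21, CYP81D1 and CYP72A8 were again among the changed genes, at 2.75 ± 0.38, 1.06 ± 0.13, -0.70 ± 0.15 and -0.97 ± 0.15 on the log2 scale, while CYP71B37 was at -1.40 ± 0.44 (adjusted p = 0.0984). The libraries did not overlap in 34 of the 87 genes, or 39.1%, beside 26.5% of all tested genes, with 16 higher (18.4%, beside 12.1%) and 18 lower (20.7%, beside 14.4%). An unadjusted p under 0.05 was found for 35 of the 87, or 40.2%, beside 21.2% of all.

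These calls rest on libraries that are in part at odds with their label, as far as mRNA can show. The lesion is not given and VQ28 ran from 0.456 to 8.70 FPKM in WT, so its mRNA cannot settle which libraries fit the label. With replicates 1 and 2 of VQ28KO12 left out, since they carry VQ28 mRNA, no P450 gene of the 87 was called by edgeR, beside 10 of all 16050. An unadjusted p under 0.05 was then found for 22, or 25.3%, beside 17.2% of all, but that setting leaves 1 library, which is assumed to vary like the other groups. All 16 kept their direction without any single library. Of the 16 calls, 4 remained without VQ28KO12 replicate 1, without VQ28KO12 replicate 3 or without VQ28OE9 replicate 1. Of all tested genes 0.816, 1.04 and 2.03% were called in these 3 settings. Without VQ28OE9 replicate 2 or 3, 5 and 6 remained (beside 3.16 and 3.23% of all called), and without VQ28KO12 replicate 2 it was 10 (beside 5.82%). Without WT replicate 1 or 2 it was 11 each (beside 5.16 and 5.62%) and without WT replicate 3 it was 15 (beside 7.73%). The highest adjusted p among the 16 in these settings was 0.165. CYP81D8, CYP71A21 and CYP72A8 passed without any single library.

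The 3 other higher genes were CYP715A1, CYP71B3 and CYP71B13. CYP715A1 (AT5G52400), studied for its part in flower development, stood at 4.03, 8.46 and 4.57 FPKM in the libraries labelled VQ28KO12 and at 19.16, 17.55 and 16.92 FPKM in VQ28OE9. All VQ28OE9 libraries lay above all others, WT included, which stood at 8.25, 11.43 and 4.65 FPKM. The log2 fold change was 1.68 ± 0.34 (edgeR adjusted p = 0.0228), and 1.12 ± 0.33 against WT (adjusted p = 0.113). CYP71B3 (AT3G26220) stood at 3.54, 4.57 and 5.195 FPKM against 11.16, 12.46 and 6.52, or 1.19 ± 0.28 on the log2 scale (adjusted p = 0.0377), and narrowly missed the threshold against WT (1.28 ± 0.29, adjusted p = 0.0509). The call of CYP71B3 between the lines passed in 11 of 20 settings. CYP71B13 (AT5G25140) was at 0.71 ± 0.18 (adjusted p = 0.0463) and passed in only 6 of 20 settings.

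Several of the 11 lower genes act on hormones, sterols or the leaf surface. BAS1, or CYP734A1 (AT2G26710, chr2:11380492-11383612, plus strand), inactivates brassinosteroids. It stood at 1.25, 1.31 and 2.00 FPKM in the libraries labelled VQ28KO12 and at 0.316, 0.334 and 0.339 FPKM in VQ28OE9. The VQ28OE9 values lay close together and below all 6 others, the lowest of which was WT replicate 2 at 0.473. Its log2 fold change was -2.17 ± 0.55 (edgeR adjusted p = 0.0454), and -2.26 ± 0.55 against WT (adjusted p = 0.0636). The call between the lines passed in 10 of 20 settings and was lost without any single library other than WT replicates 2 and 3, with adjusted p up to 0.144 over the settings.

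CPD, or CYP90A1 (AT5G05690), an enzyme of brassinosteroid synthesis, stood at 121.9, 100.8 and 130.2 FPKM in the libraries labelled VQ28KO12 and at 70.82, 75.18 and 54.76 FPKM in VQ28OE9. The groups were apart, and WT, at 77.09, 69.41 and 99.56 FPKM, lay in between and overlapped VQ28OE9. The log2 fold change was -0.79 ± 0.18 (edgeR adjusted p = 0.0312), and -0.32 ± 0.18 against WT (adjusted p = 0.407). CYP707A4 (AT3G19270), which breaks down abscisic acid, was at 5.53, 6.32 and 3.79 FPKM against 2.42, 2.23 and 2.62, or -1.07 ± 0.24 (adjusted p = 0.0292). CYP710A1 (AT2G34500), the sterol desaturase that makes stigmasterol, was at 1.36, 2.41 and 1.80 FPKM against 0.733, 0.713 and 0.533, or -1.46 ± 0.29 (adjusted p = 0.0209). In both of these genes VQ28OE9 lay below WT as well, at -0.85 ± 0.24 and -1.06 ± 0.29, without passing the threshold.

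CYP86A2 (AT4G00360, chr4:160768-163023, plus strand), the cutin gene and second highest of the family, stood at 345.4, 351.4 and 345.8 FPKM in the libraries labelled VQ28KO12 and at 196.7, 199.7 and 244.1 FPKM in VQ28OE9. WT lay between them, at 291.9, 262.9 and 319.2 FPKM, and none of the 3 groups overlapped. The log2 fold change between the lines was -0.67 ± 0.13 (edgeR adjusted p = 0.0213), and -0.47 ± 0.13 in VQ28OE9 against WT (adjusted p = 0.097). The 3 markers of epidermis and trichomes summed to 9.51 to 12.1 FPKM in WT, 13.9 to 15.95 in the libraries labelled VQ28KO12 and 3.93 to 5.89 in VQ28OE9, in the same order. That order was ATML1's alone, which made up most of the sum. PDF1 was at 0 in 3 of the 9 libraries and went the other way, with 0.251, 0.445 and 0.286 FPKM in VQ28OE9 and at most 0.182 elsewhere, and GL2 had no such order. Guard cells, which also lie in the epidermis, had marker sums of 13.9 to 15.5 FPKM in WT, 16.3 to 23.4 in the libraries labelled VQ28KO12 and 19.7 to 24.002 in VQ28OE9. Of the guard cell markers, only HT1 and FAMA had VQ28OE9 wholly above WT. The part of these cells in the CYP86A2 result was not tested, and in whole leaves fewer cells of a type and less RNA per cell cannot be told apart. CYP86A2 overlaps AT4G00370 on the opposite strand by 127 bases.

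The remaining lower genes covered a wide range of levels. CYP84A4 (AT5G04330), an enzyme of arabidopyrone synthesis, stood at 8.28, 9.08 and 13.31 FPKM against 3.17, 4.71 and 5.51 in VQ28OE9 (-1.18 ± 0.30, edgeR adjusted p = 0.0468). CYP78A9 (AT3G61880), of a family that promotes organ growth, stood at 5.40, 2.61 and 5.60 FPKM against 1.37, 2.43 and 1.14 (-1.44 ± 0.35, adjusted p = 0.0418). In CYP78A9 the lowest library labelled VQ28KO12 and the highest VQ28OE9 library were nearly equal. CYP89A2 (AT1G64900) stood at 86.61, 81.74 and 91.18 FPKM against 57.72, 56.95 and 55.95 (-0.58 ± 0.12, adjusted p = 0.0244), and CYP72A11 (AT3G14650) was at -0.43 ± 0.11 (adjusted p = 0.0459). The calls of CYP84A4 and CYP78A9 passed in 9 of 20 settings each, and that of CYP72A11 in 4 of 20. CYP72A11 missed the threshold without any single library, with edgeR adjusted p up to 0.145. It shares 92.9% of its coding sequence with its neighbour CYP72A13, which was at -0.01 ± 0.11.

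**Figure D3:**
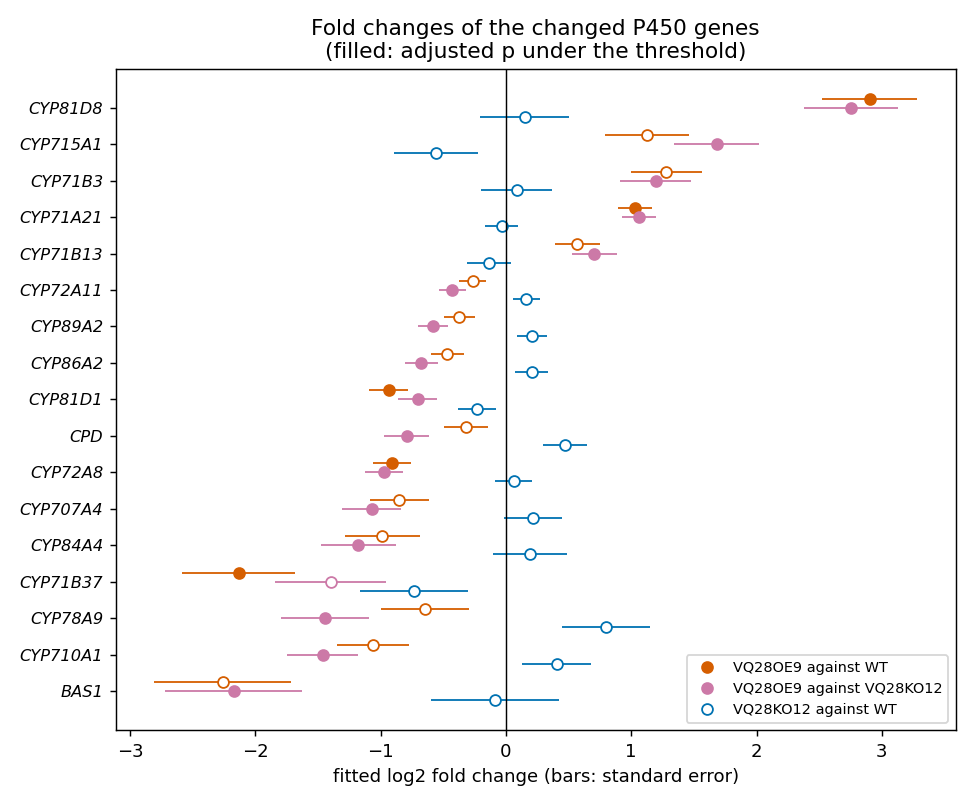
Fitted log2 fold change with its standard error for the 17 changed P450 genes in the 3 comparisons, with filled points at an adjusted p under 0.05. VQ28OE9 lies on the same side of 0 against WT and against VQ28KO12 in each of the 17 genes, and no VQ28KO12 against WT point is filled.

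The third comparison, VQ28KO12 against WT, concerns the labelled knockout. No P450 gene of the 87 was called by edgeR, beside 0.00623% of all tested genes, and none by DESeq2 or limma. An unadjusted p under 0.05 was found for 8 of the 87, or 9.20%, beside 5.03% of all. The libraries did not overlap in 10 of the 87 genes, or 11.5%, beside 10.8%, and all 10 were higher in VQ28KO12. Of all tested genes 8.0% were apart and higher and 2.76% apart and lower. The smallest p-values belonged to CYP71B35, CYP706A6 and CPD. CYP71B35 read 7.07, 3.32 and 4.97 FPKM, and 3.47, 2.24 and 2.60 in WT, with overlap (0.83 ± 0.28 on the log2 scale, edgeR adjusted p = 0.942). CYP706A6 stood at 17.62, 13.92 and 15.24 FPKM against 13.58, 10.70 and 9.54, without overlap (0.42 ± 0.15, adjusted p = 0.946). CPD was at 0.47 ± 0.18 (adjusted p = 0.973). Since VQ28 mRNA was present in replicates 1 and 2, this comparison is one of the libraries as labelled.

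Brassinosteroid synthesis was the hormone pathway with the most tested P450 genes. Of its 5 tested genes, 0 changed in VQ28OE9 against WT and 1, CPD, was lower against VQ28KO12. All 5 had a negative log2 fold change in the latter, with a median of -0.79. Against WT, DWF4, or CYP90B1, lay above 0, at 0.19 on the log2 scale, and the others lay below. DWF4 had a mean of 2.34 FPKM in WT. ROT3, or CYP90C1, stood at 2.31 ± 0.719 FPKM in WT and at 0.973 ± 0.403 in VQ28OE9 (-1.26 ± 0.41, edgeR adjusted p = 0.138). CYP90D1, which acts at the same step, stood at 5.99 ± 1.91 and 4.91 ± 1.25 FPKM (-0.31 ± 0.27, adjusted p = 0.635). BR6OX2, the last enzyme of the pathway, whose description lacks the words cytochrome P450, stood at 1.17, 1.24 and 7.48 FPKM in WT and at 0.508, 0.442 and 0.805 in VQ28OE9 (-2.51 ± 0.71, adjusted p = 0.0952). Of the inactivating enzymes, CYP72C1 stood at 1.25, 2.51 and 0.819 FPKM in WT and at 4.44, 3.01 and 2.77 FPKM in VQ28OE9. That is the opposite direction to BAS1, with no overlap but without passing the test (1.14 ± 0.44, adjusted p = 0.209).

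Jasmonate breakdown, which held 3 of the 8 highest P450 genes, had no gene that passed the test in any comparison. CYP94B1 stood at 333.4, 343.9 and 335.1 FPKM on average in WT, VQ28KO12 and VQ28OE9, with log2 fold changes within 0.01 of 0. CYP94B3 varied within each group, from 124.3 to 321.6 FPKM in WT and from 116.1 to 345.1 in VQ28OE9, and its highest libraries in both were replicate 3. CYP94C1 stood at 118.8 ± 16.7 FPKM in VQ28OE9 against 82.68 ± 22.1 in WT (0.50 ± 0.19, edgeR adjusted p = 0.2). In abscisic acid breakdown, CYP707A4 was lower against VQ28KO12 as given above, and CYP707A1 was at 0.19 ± 0.31 against WT (adjusted p = 0.828).

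Other hormone lists held few tested genes, and none of them changed. The 3 tested genes of gibberellin synthesis had log2 fold changes from -0.05 to 0.27 in VQ28OE9 against WT, among them CYP88A3 at 0.27 ± 0.19. CYP711A1, which oxidises the strigolactone precursor carlactone, was at 0.13 ± 0.16. Both genes of gibberellin inactivation and both of cytokinin hydroxylation were below the level for testing, with CYP714A1 at 0.264 FPKM and CYP735A2 at 0.0105 FPKM in WT.

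In phenylpropanoid and lignin synthesis, the gene that fell most was FAH1, a P450 of sinapate synthesis whose description lacks the words used to choose the 228. It stood at 49.12, 57.63 and 60.90 FPKM in WT and at 16.38, 17.58 and 21.97 FPKM in VQ28OE9. The log2 fold change was -1.60 ± 0.27 (edgeR adjusted p = 0.0234), and -1.59 ± 0.27 against VQ28KO12 (adjusted p = 0.0144). CYP98A3, which acts earlier in the same route, stood at 50.5 ± 10.6 FPKM in WT and 51.75 ± 4.99 in VQ28OE9 (0.01 ± 0.27, adjusted p = 0.988). C4H, the first P450 of the route, was at 0.22 ± 0.31 (adjusted p = 0.799). The library labelled VQ28KO12 replicate 2 had the highest values of all 3 genes, with 85.64 FPKM for FAH1, 85.79 for CYP98A3 and 550.0 for C4H.

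Among sterol genes, CYP51G1, the sterol demethylase, stood at 20.16 ± 0.562 FPKM in WT and 20.16 ± 2.36 in VQ28OE9. CYP710A2, a relative of the lower CYP710A1, stood at 17.8 ± 2.77 and 12.54 ± 2.43 FPKM, without overlap (-0.53 ± 0.17, edgeR adjusted p = 0.139). The 3 carotenoid hydroxylase genes lay close together, with log2 fold changes from -0.08 to 0.08 in VQ28OE9 against WT. CYP97A3 stood at 31.89 ± 1.19 and 30.71 ± 0.877 FPKM and CYP97B3 at 26.67 ± 2.74 and 26.41 ± 1.80 FPKM. In cutin and suberin synthesis 3 of 10 genes were tested, and CYP86A8 was at 7.62 ± 0.882 and 7.68 ± 0.844 FPKM beside the much higher CYP86A2.

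**Figure D4:**
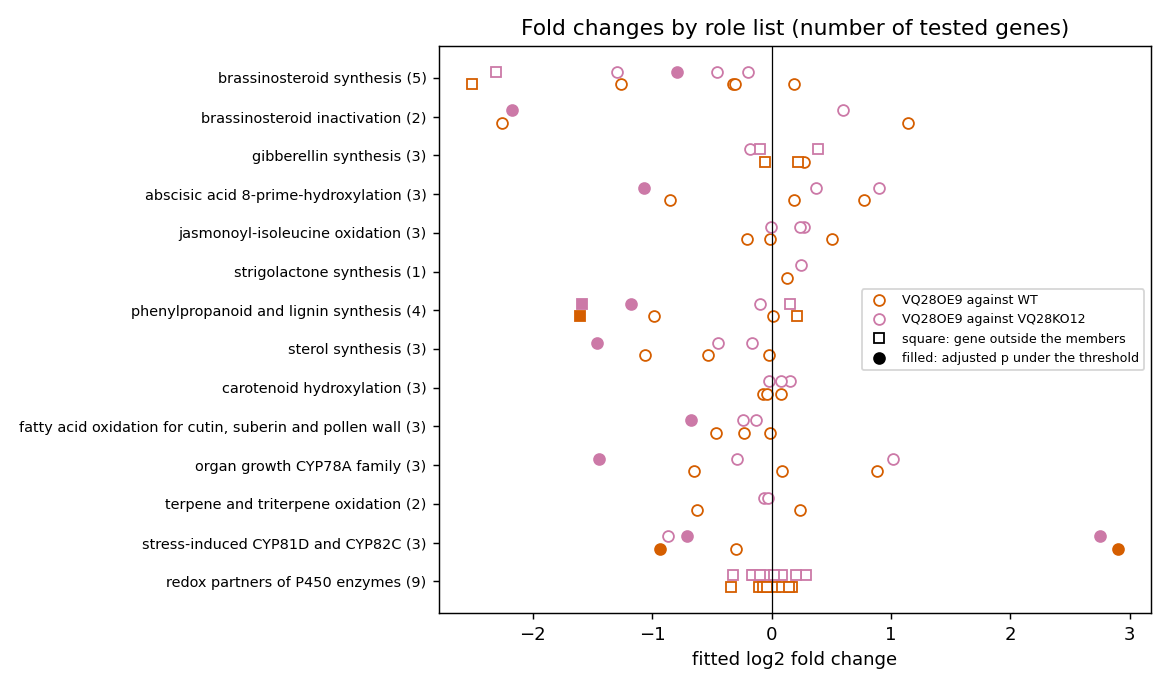
Fitted log2 fold change of each tested gene by role list in VQ28OE9 against WT and against VQ28KO12, with squares for genes outside the 228 and filled symbols at an adjusted p under 0.05. The CYP81D and CYP82C list holds the highest point, CYP81D8, and also the lower CYP81D1, while carotenoid hydroxylation and the 9 redox partners stay near 0.

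The stress list of CYP81D and CYP82C genes had 3 tested members that went apart. CYP81D8 rose and CYP81D1 fell, and CYP81D11 was variable, at 3.14, 9.20 and 12.39 FPKM in WT and 3.81, 4.37 and 12.23 in VQ28OE9 (-0.30 ± 0.58, edgeR adjusted p = 0.86). CYP82G1, of homoterpene synthesis, was at -0.62 ± 0.24 (adjusted p = 0.222) and CYP76C1, which oxidises linalool, at 0.24 ± 0.22 (adjusted p = 0.653). In the organ growth family CYP78A8 was at 0.88 ± 0.38 in VQ28OE9 against WT (adjusted p = 0.266), and CYP78A9 was at -0.65 ± 0.35 (adjusted p = 0.395). CYP96A4 had 111.9 ± 36.7 FPKM in WT and 108.6 ± 21.8 in VQ28OE9 (-0.06 ± 0.22, adjusted p = 0.926). CYP89A9 stood at 61.18, 66.70 and 122.0 FPKM in WT and at 66.69, 88.04 and 209.2 in VQ28OE9, with replicate 3 highest in each (0.52 ± 0.44, adjusted p = 0.617).

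The genes of enzymes that pass electrons to the P450 family had small fitted changes. None of 9 tested redox partner genes was called in any comparison. Of all tested genes, 2.31% were called in VQ28OE9 against WT, 0.00623% in VQ28KO12 against WT and 6.33% between the lines. At such shares, 0 of 9 does not set these genes apart. The log2 fold changes of the 9 ran from -0.34 to 0.17 in VQ28OE9 against WT. ATR1 and ATR2, the P450 reductases, stood at 23.54 ± 2.82 and 159.8 ± 25.95 FPKM in WT and at 24.33 ± 3.76 and 182.0 ± 17.29 FPKM in VQ28OE9. Their log2 fold changes were 0.03 ± 0.13 (edgeR adjusted p = 0.952) and 0.17 ± 0.17 (adjusted p = 0.677).

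P450 genes often lie in tandem. Of the 228, 84 stood in 14 arrays of at least 4 members with gaps of at most 20 kb, and 38 of these 84 were tested. Only the 228 genes were placed in arrays, so the end of an array need not be the end of a P450 cluster. The genes named in this paragraph beyond the changed ones were chosen after their values were seen. In the CYP72A array on chromosome 3, 4 of 8 genes were tested, and they ran from the lower CYP72A8 at one end to CYP72A15 at the other. CYP72A15 stood at 28.12, 24.55 and 26.04 FPKM in WT and at 39.22, 36.70 and 34.21 FPKM in VQ28OE9, without overlap (0.46 ± 0.11, edgeR adjusted p = 0.0656). A CYP71B array on chromosome 3 had 5 of 10 genes tested, all with positive log2 fold changes in VQ28OE9 against WT, from 0.10 to 1.28. CYP71B23, CYP71B3 and CYP71B24 lie side by side there, at 1.05 ± 0.40, 1.28 ± 0.29 and 0.82 ± 0.29. None of these genes passed the threshold against WT (edgeR adjusted p = 0.209, 0.0509 and 0.179). A second CYP71B array, which also lies on chromosome 3, had 6 of 7 genes tested, from -2.13 for CYP71B37 to 0.45 for CYP71B26. In the array of CYP81D8 on chromosome 4, its nearest neighbours CYP81D2 and CYP81D3 were not tested, CYP81D4 was at 0.42 (adjusted p = 0.278) and CYP81H1 at -0.82 (adjusted p = 0.218). None of the 8 genes of the CYP702A and CYP705A array on chromosome 4 was tested.

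**Figure D5:**
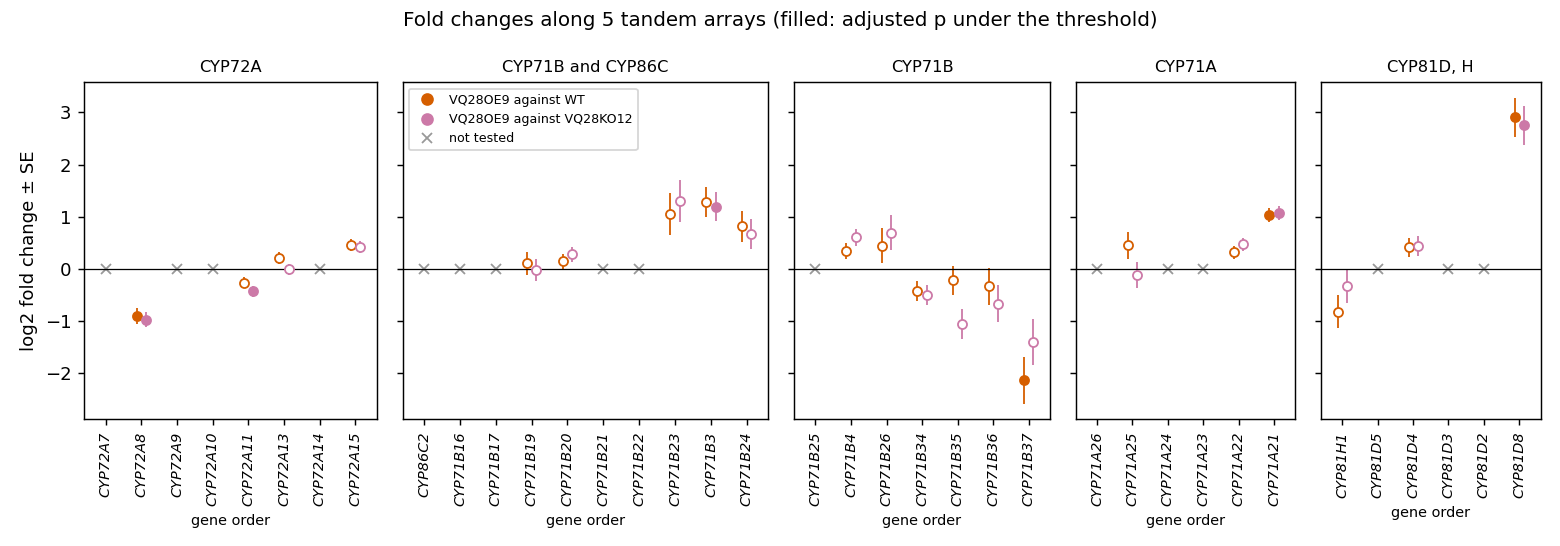
Fitted log2 fold change with its standard error for the genes of 5 tandem arrays, in gene order along the chromosome, with filled points at an adjusted p under 0.05 and crosses for untested genes. Neighbours in one array lie on both sides of 0, as CYP72A8 and CYP72A15 do, and CYP81D8 lies above the other tested genes of its array. Only genes of the 228 were placed in arrays.

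Near-identical copies limit some of these values. Of the tested genes, 6 have a relative in the family with at least 95% coding identity, namely CYP706A1 and CYP706A2 at 97.3%, CYP89A5 and AT2G12190 at 96.6%, and CYP71B19 and CYP71B20 at 96.2%. How the authors' counting shared reads between such genes is not stated in any source used here, so the values of these 6 are uncertain. None of them changed.

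Replicate 3 of WT and of VQ28OE9 stood together in part of the family. In 7 of the 87 genes, or 8.05%, both of these libraries lay above the other 7, against 4.12% of all tested genes, and in 6, or 6.90%, both lay below, against 5.35%. The 7 were AT1G66540, CYP89A9, CYP71B26, CYP94B3, CYP706A4, CYP707A1 and CYP71B12, and none of them was among the changed genes. Without both libraries, 4 P450 genes changed in VQ28OE9 against WT and 16 against VQ28KO12, of which 4 and 13 were among those called with all libraries. Of all tested genes 0.586% and 6.59% were called in that setting.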

How the data were processed

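Poly(A) RNA libraries marked by strand with dUTP were sequenced in pairs, per the labels' protocols. The authors deposited 1 table with an FPKM and a whole-number count per gene and library, per the file headers. These deposited counts were handled as estimated counts, since multiples of 4 make up 48.7 to 57.0% of the values between 1 and 16, where chance would give 25%. No source used here names the aligner, counting tool or genome build. A gene without counts is listed at an FPKM of 0.0001, called 0 here.

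Libraries were grouped by title. The 16050 genes with a mean of at least 1 FPKM were tested with edgeR 4.0.16 (R 4.3.3, TMM, quasi-likelihood, two-sided) in 1 fit of all 9 libraries, adjusted over all 16050. Each standard error is the fitted log2 change over the root of its F statistic. On simulated data for VQ28OE9 against WT, 44% of 100 2-fold and 93% of 100 4-fold changes among 16050 genes were recovered. For VQ28KO12 against WT these shares were 49% and 94%, and between the lines 57% and 95%. Of the simulated calls, 4.86% were false in VQ28OE9 against WT, 8.92% in VQ28KO12 against WT and 7.88% between the lines. In VQ28KO12 against WT and between the lines, the false share lay above the rate that the adjusted threshold aims for. DESeq2 1.42.0 and limma 3.58.1 were alternatives.

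All 228 genes were matched by locus to the RefSeq table of TAIR10.1 for symbols, and both ends of all 228 lay within 2000 bases of the deposited ones. Printed sequences were read from that genome by RefSeq's coordinates. Coding identity came from blastn 2.17.0. Genes named by rule are all changed members, the 3 smallest p where under 3 changed, the 8 highest in WT, up to 2 per role list and both reductases. Others, such as DWF4, ROT3, BR6OX2, FAH1, C4H, CYP71A22 and CYP72A13, were named outside this rule with their values known. Members, lists and rules were chosen with earlier results of these data known.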

Additional observations from a re-analysis of the deposited data

How the results depend on the processing

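In VQ28OE9 against WT, 5 P450 genes changed, against 15 by DESeq2 with its size factors (17.2%, beside 8.46% of all genes tested), 3 with only the 6 libraries compared (3.45%, beside 1.02%) and 2 to 7 without 1 library each (beside 0.287 to 2.1% of all). Between the lines 16 changed (18.4%, beside 6.33%), against 9 by limma on log2(FPKM + 0.1) (10.3%, beside 4.75%) and 24 by DESeq2 (27.6%, beside 12.2%). Without 1 library each it was 4 to 18 (beside 0.816 to 7.73% of all). The setting without replicates 1 and 2 of VQ28KO12 was added after seeing the data and leaves 1 library of that label. CYP81D8 was at 2.79 on the log2 scale there. The cause of these differences was not tested. In VQ28KO12 against WT the count was 0 in every setting run, with 0 to 0 without 1 library each and 10 at an unadjusted p under 0.05 by DESeq2 (11.5%, beside 6.10% of all). The other counts, apart from that of the setting with 1 library, stayed within 1.5 times. None of the 21 named results that passed with all libraries turned its direction. Of the 117 results of the 39 tested genes named by the rule, in the 3 comparisons, 34 changed sign in at least 1 setting, such as CYP94B1 in all 3 comparisons, and these passed neither with all libraries nor where the sign changed (lowest adjusted p = 0.358). Deviations from the group means correlated by -0.223 to 0.417 between libraries of the same replicate number (mean 0.0899). Between others the correlations were -0.415 to 0.419 (mean -0.0435). These overlapping ranges cannot decide whether replicate numbers pair the libraries. With the replicate block 6 genes changed in VQ28OE9 against WT (6.9%, beside 2.92% of all) and 0 in VQ28KO12 against WT (beside 0.00623%). Between the lines it was 14 (16.1%, beside 6.57%), 12 of them shared with the fit without the block. Genes near 1 FPKM rest on fewer fragments than higher ones. With a filter at 0.3 FPKM or none, CYP72A14, which the filter at 1 FPKM left out, was also called in VQ28OE9 against WT.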

Other observations

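The genes given here were chosen after their values were seen. Of the P450 genes too low to be tested, CYP76C2 stood at 0.230 ± 0.0901 FPKM in WT, 0.0891 ± 0.105 in the libraries labelled VQ28KO12 and 1.67 ± 1.02 in VQ28OE9, where its libraries read 0.494, 2.17 and 2.33 FPKM. With no filter on level it was called in VQ28OE9 against VQ28KO12 (log2 fold change 4.10, edgeR adjusted p = 0.0356). CYP72A14, in the tandem array of CYP72A8, stood at 0.153, 0.127 and 0.135 FPKM in WT and at 0.535, 0.886 and 0.802 FPKM in VQ28OE9, with no overlap. It was called against WT with no filter (2.36, edgeR adjusted p = 0.0417), in the opposite direction to CYP72A8. CYP76C6 and CYP71A23 also reached 1 FPKM in VQ28OE9, at 1.32 ± 0.426 and 1.06 ± 0.158 FPKM, against 0.723 ± 0.290 and 0.520 ± 0.232 in WT.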
